A study of Homo sapiens with 20 samples.

Results

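The genes described here are the SPARC family, 8 genes for secreted matrix-associated proteins: SPARC, SPARCL1, SPOCK1, SPOCK2, SPOCK3, SMOC1, SMOC2 and FSTL1. They were chosen by gene symbol, and each was found as a single entry among the 60671 gene identifiers of the count table. The cells were hTCEpi, a human corneal epithelial line immortalized with telomerase and grown in keratinocyte medium with added calcium. They received recombinant human SPARC protein at 0 µg/ml (control), 0.05, 0.5 or 5 µg/ml for 24 hours. The groups are called control, SPARC 0.05, SPARC 0.5 and SPARC 5 and hold 5 samples each, 20 in all. RNA was sequenced as paired reads after depletion of ribosomal RNA. All groups are the same line under the same culture conditions, and the labels do not say whether the 5 samples of a group were separate cultures, so p-values measure only the spread between these samples.

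SPARC, also called osteonectin, is a glycoprotein that is secreted into the extracellular matrix, binds collagen and modulates how cells attach to it. Its relatives share a follistatin-like domain and a calcium-binding domain of the EF-hand type, in some members much altered. SPARCL1 (hevin) is the nearest relative, SPOCK1, SPOCK2 and SPOCK3 encode the testicans, which are proteoglycans that act on proteases, and SMOC1, SMOC2 and FSTL1 are secreted modulators of growth factor signalling, BMP signalling among them. In the cornea SPARC is best known as a product of stromal fibroblasts during wound repair.

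Total counts per library were between 31955358 and 50112286, and a count of 0 allows a level of up to 0.0599 to 0.0941 CPM (counts per 1000000 counts of the library, scaled by TMM factors), depending on the library (3 counts, counting error only). Of the count values from 1 to 10 in the table, 72.5% were even, so the counts of the rarer members are counts of reads in which both mates of a pair can be present. Where both mates are counted, the counts are not independent, and the level that a count of 0 allows is higher than given above. The epithelial label was checked on markers: KRT5, a keratin of basal epithelium, had between 10807 and 11659 CPM, and the epithelial transcription factor TP63 between 264 and 289 CPM. KRT12, a keratin of differentiated corneal epithelium, was at 0 in 14 of 20 libraries. KRT3 of the same list had 1.28 to 2.08 CPM and PAX6 6.32 to 8.98 CPM. Markers of corneal stroma and fibroblasts, the cells best known for SPARC, summed to between 4.76 and 9.87 CPM over 9 genes, with KERA at 0 in all 20 libraries and LUM and PDGFRA at 0 in 19. In control that sum ran from 5.49 to 8.16 CPM and at SPARC 5 from 5.95 to 9.87 CPM, so the ranges overlapped. Of these 9 genes, COL1A1 (2.90 to 7.12 CPM) and THY1 (0.374 to 1.89 CPM) had counts in all 20 libraries. Of the melanocyte markers, MLANA (0.664 to 2.15 CPM) and PMEL (1.05 to 2.44 CPM) also did, and TYR was at 0 in 19. The second principal component set SPARC 5 replicate 2 and SPARC 5 replicate 5 (48.2 and −40.1) apart from the other 18 libraries (−26.5 to 12.5).

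Within the family, FSTL1 was by far the most abundant transcript. It took 89.9% of the family's counts over the 20 libraries. Per length, as CPM per kilobase of exon, FSTL1 had 3.60 ± 0.165 in control (mean ± SD, n = 5 here and for the other members) and SMOC1 0.548 ± 0.0716. SPOCK2 followed with 0.150 ± 0.0190, SPOCK1 with 0.0939 ± 0.0422, SPARCL1 with 0.0766 ± 0.0470, SPARC with 0.0404 ± 0.0288, SMOC2 with 0.0231 ± 0.0160 and SPOCK3 with 0.0116 ± 0.0034. Only FSTL1 and SMOC1 stood apart from the next member by more than the sum of the SDs, and from SPOCK2 downward the ranges of neighbours overlapped. At SPARC 5 the per-length level of SPOCK1 was 0.317 ± 0.0905 and that of SMOC1 0.257 ± 0.0759, with overlapping ranges. All 8 members had a mean of at least 3 counts in some group, the level taken here as detected, but SPARC and SMOC2 had too few counts for a test, and 6 members were tested.

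**Figure D1:**
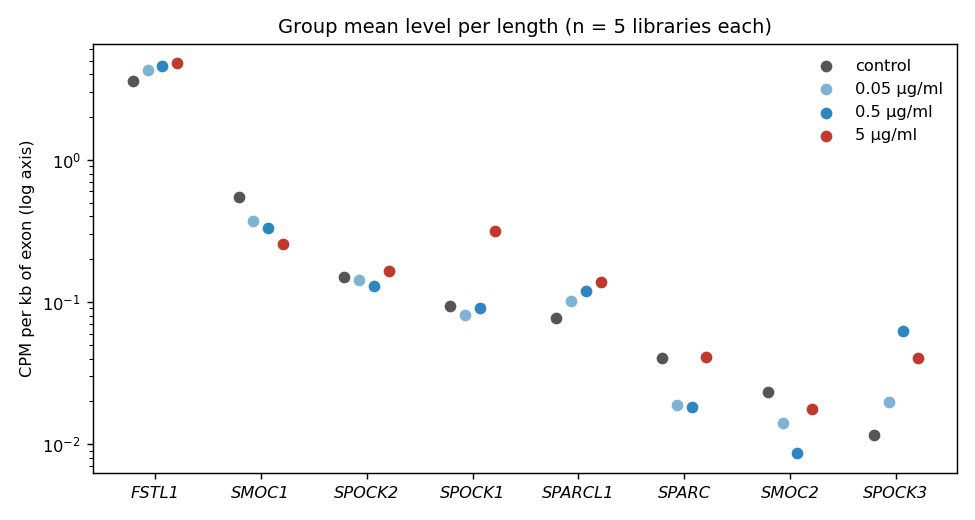
Group mean level of each family member per kilobase of exon on a log axis, with genes in the order of their control level and 1 point per group of 5 libraries. FSTL1 lies above all other members in every group, and SPOCK1 at SPARC 5 (0.317) lies above SMOC1 (0.257), where in control SMOC1 (0.548) lies above SPOCK1 (0.0939).

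Across the doses, FSTL1 rose at all 3, SMOC1 fell at SPARC 0.5 and SPARC 5, and SPOCK1 rose at SPARC 5. The calls of FSTL1 at SPARC 0.05 and of SMOC1 at SPARC 0.5 were not kept under every alternative processing, as described below. In the edgeR quasi-likelihood test with Benjamini-Hochberg adjustment over 22938 genes, 1 of 6 members tested was called higher and 0 lower at SPARC 0.05, where 0.266% of all genes were called (0.187% higher, 0.0785% lower). At SPARC 0.5, 1 was higher and 1 lower, against 2.25% of all genes (1.36% higher, 0.894% lower). At SPARC 5, 2 were higher and 1 lower, against 11.6% of all genes (7.05% higher, 4.58% lower). The other 3 members tested, SPARCL1, SPOCK2 and SPOCK3, were not called at any dose. These 3 comparisons share the control libraries. Groups are also described below as overlapping or not, and the share of all genes without overlap was not counted.

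**Figure D2:**
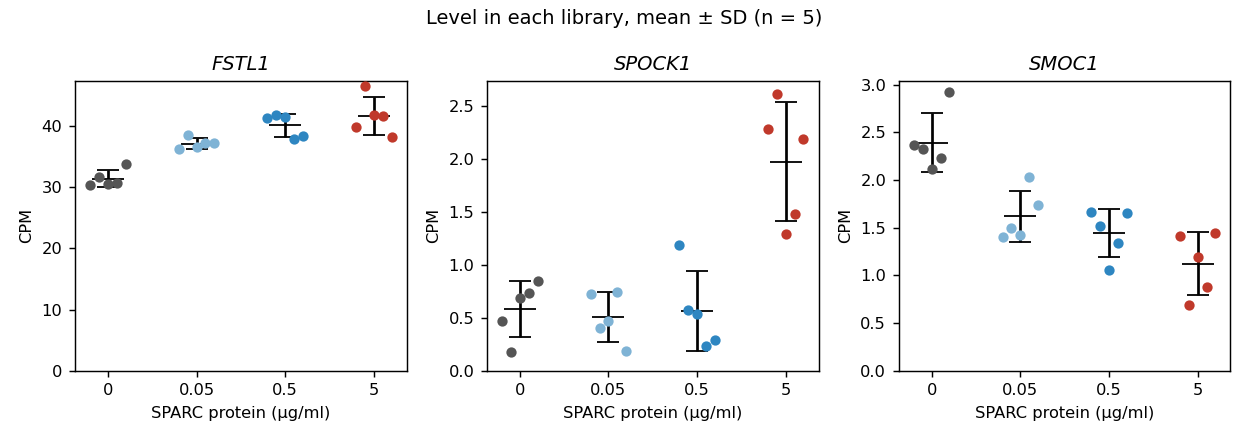
CPM of FSTL1, SPOCK1 and SMOC1 in every library against the dose of SPARC protein in µg/ml, with points from left to right for replicates 1 to 5 and bars for the mean ± SD of 5 libraries. FSTL1 is above every control library at each dose, SPOCK1 is above at SPARC 5 alone of the 3 doses, and SMOC1 is below every control library at each dose.

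The SPARC gene itself (ENSG00000113140, chromosome 5, 151661096 to 151687165 of GRCh38, minus strand) gave few reads at every dose of the protein. In control it had 2, 1, 12, 10 and 10 counts in replicates 1 to 5. It had 8, 2, 2, 4 and 0 counts at SPARC 0.05, 2, 9, 0, 4 and 2 at SPARC 0.5, and 4, 2, 1, 6 and 23 at SPARC 5. The groups overlapped at all doses, and the 23 counts of SPARC 5 replicate 5 made up most of the 36 counts of that group. The mean level was 0.195 ± 0.139 CPM without SPARC protein and, in rising order of dose, 0.0911 ± 0.0901, 0.0883 ± 0.0892 and 0.199 ± 0.251 CPM. In the 2 libraries at 0, the level can be up to 0.0714 CPM (replicate 5 of SPARC 0.05) and 0.0599 CPM (replicate 3 of SPARC 0.5), or higher where both mates were counted. In a fit without the filter on low counts, over 45304 genes, the log2 fold change at SPARC 5 was 0.015 ± 0.82 (SE, adjusted p = 1). At SPARC 0.05 it was −1.10 ± 0.86 (adjusted p = 0.715) and at SPARC 0.5 −1.14 ± 0.85 (adjusted p = 0.621). A difference of the SPARC transcript was not detectable at this depth. CLMAT3, a noncoding gene on the opposite strand that shares 381 exon bases with SPARC, had at most 8 counts, and since the strand setting of the counting is not given, reads of the 2 genes in those bases cannot be told apart.

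SPARCL1 (ENSG00000152583, chromosome 4, 87473335 to 87531061, minus strand), which encodes hevin, had between 2 and 35 counts per library. Its mean was 0.266 ± 0.163 CPM without the protein and, in rising order of dose, 0.352 ± 0.235, 0.415 ± 0.127 and 0.480 ± 0.322 CPM. The control libraries ran from 0.0604 to 0.499 CPM and those of SPARC 5 from 0.133 to 0.970 CPM, so the groups overlapped. The log2 fold change at SPARC 5 was 0.84 ± 0.51 (adjusted p = 0.342) and was smaller at the lower doses. The differences were within the spread of the libraries, and the order of the means rested on SPARC 5 replicate 5: without it, SPARCL1 at SPARC 5 had a log2 difference of 0.42 from control and of −0.23 from SPARC 0.5.

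FSTL1 (ENSG00000163430, chromosome 3, 120392293 to 120451253, minus strand) encodes a secreted glycoprotein that binds BMP4 and limits BMP signalling. Control libraries had 30.4, 31.7, 30.6, 30.7 and 33.9 CPM. The 5 libraries of SPARC 0.05 had 36.2, 38.6, 36.5, 37.3 and 37.2 CPM, those of SPARC 0.5 had 41.3, 41.8, 41.5, 37.9 and 38.4 CPM, and those of SPARC 5 had 39.8, 46.6, 41.8, 41.7 and 38.3 CPM. Every library with SPARC protein was thus above every control library, while the 3 doses overlapped with each other in part. FSTL1 rose by 0.24 ± 0.05 on the log2 scale at SPARC 0.05 (SE, adjusted p = 0.00811), 0.35 ± 0.05 at SPARC 0.5 (adjusted p = 4.8e-07) and 0.41 ± 0.05 at SPARC 5 (adjusted p = 2.65e-10). As a fold this was 1.18, 1.28 and 1.32. FSTL1 was 1 of the 61 genes called at the lowest dose. In bulk RNA, a change in the share of cells that express a gene and a change in its RNA per cell cannot be told apart.

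The mean of the control libraries also lay above that of the other groups in how levels followed GC content, with overlapping ranges. The correlation with GC content across genes, relative to the mean of all libraries, was 0.128 ± 0.107 in control (−0.012 to 0.270). It was −0.035 ± 0.032 at SPARC 0.05 (−0.076 to 0.014), −0.060 ± 0.043 at SPARC 0.5 (−0.126 to −0.018) and −0.040 ± 0.084 at SPARC 5 (−0.127 to 0.099). The longest FSTL1 transcript has 44.1% GC. With GC and length trends taken out per library, FSTL1 had a log2 fold change of 0.21 at SPARC 0.05 and missed the threshold (adjusted p = 0.0649). Its rises at SPARC 0.5 and SPARC 5 stayed past the threshold there and under the other 11 alternatives, and without each library in turn. The part of GC content in the call at SPARC 0.05 was not tested. FSTL1 is also the host of a microRNA, hsa-miR-198, which lies in an exon of the gene (chr3:120395703-120395724, RefSeq, GRCh38.p14). Its mature sequence is shown because the FSTL1 transcript can be processed to this microRNA in place of the mRNA, with the seed in capitals (bases 2 to 8).
hsa-miR-198: gGUCCAGAggggagauagguuc
MIR198, which overlaps 62 exon bases of FSTL1 on the same strand, was at 0 counts in all 20 libraries. A read in those bases also lies in FSTL1, and how reads shared by genes were counted is not given. These libraries were also not made from small RNA, so the 0 says nothing about the level of this microRNA. AC063952.1, a pseudogene on the opposite strand that shares 316 exon bases with FSTL1, had between 6 and 47 counts, against 1044 to 2078 for FSTL1.

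SMOC1 (ENSG00000198732, chromosome 14, 69854131 to 70032366, plus strand) encodes a secreted calcium-binding protein that antagonizes BMP signalling and is needed for normal development of the eye. Control libraries had 2.37, 2.32, 2.12, 2.23 and 2.92 CPM. The libraries of SPARC 0.05 had 1.40, 1.49, 1.43, 2.03 and 1.74 CPM, those of SPARC 0.5 had 1.66, 1.52, 1.06, 1.33 and 1.65 CPM, and those of SPARC 5 had 1.41, 0.685, 1.19, 0.880 and 1.44 CPM. No library with SPARC protein reached the lowest control library. SMOC1 fell by 1.08 on the log2 scale at SPARC 5 (SE 0.22, adjusted p = 0.000115), to 0.472 of its control level. At SPARC 0.5 the log2 fold change was −0.73 ± 0.21 (adjusted p = 0.0442), and at SPARC 0.05 it was −0.56 ± 0.21 and missed the threshold (adjusted p = 0.323). The lack of overlap at SPARC 0.05 adds no support to that value, since its share over all genes was not counted.

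The call of SMOC1 at SPARC 0.5 was close to the threshold. It was lost without any 1 of the 5 control libraries and without replicate 2, 3, 4 or 5 of SPARC 0.5, with log2 fold changes from −0.79 to −0.63 and adjusted p from 0.0513 to 0.147. It was also lost with GC and length trends taken out (−0.69, adjusted p = 0.0713) and without a filter on low counts (−0.73, adjusted p = 0.0979). It was kept in the other 10 alternatives, among them DESeq2 (adjusted p = 0.0138) and limma-voom (adjusted p = 0.0223). The fall at SPARC 5 stayed past the threshold when each library was left out in turn (adjusted p up to 0.00123).

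The 100 bases before the RefSeq start of SMOC1 (chr14:69879316-69879415, plus strand, GRCh38.p14) are shown because this was the member that fell. The window ends right before the start of the first protein-coding transcript at 69879416 and holds 0 annotated exon bases. It lies inside the gene span given above because a transcript not annotated as protein-coding starts further upstream, at 69854131. Capitals mark a TATA box (TATAAA on either strand, here on the reverse strand) and 2 GC boxes (GGGCGG on either strand, here both on the reverse strand and overlapping each other).
SMOC1 upstream: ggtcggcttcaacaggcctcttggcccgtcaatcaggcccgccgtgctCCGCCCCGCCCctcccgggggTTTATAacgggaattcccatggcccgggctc
The TATA box ends 26 bases before the start. Of 27305 RefSeq upstream windows of the same length, 5.34% hold a TATA box and 31.3% a GC box by these letters. A SMAD box (CAGAC on either strand) has no match in these bases and is present in 15.5% of the windows.

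SMOC2 (ENSG00000112562, chromosome 6, 168441151 to 168673445, plus strand), the closest relative of SMOC1, was at 0 counts in 10 of 20 libraries. Its counts were 6, 4, 0, 4 and 2 in control, 0, 0, 0, 0 and 12 at SPARC 0.05, 4, 0, 0, 0 and 2 at SPARC 0.5, and 2, 8, 0, 2 and 0 at SPARC 5. The mean of control was 0.0931 ± 0.0643 CPM, near the level that a count of 0 allows. It was the least detected member. In the fit without the filter on low counts, the log2 fold change was −0.63 ± 1.22 at SPARC 0.05 (adjusted p = 0.982), −1.41 ± 1.26 at SPARC 0.5 (adjusted p = 0.675) and −0.39 ± 1.21 at SPARC 5 (adjusted p = 0.983), so no difference was detectable at this depth.

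SPOCK1 (ENSG00000152377, chromosome 5, 136975298 to 137598379, minus strand) encodes testican-1, a proteoglycan that inhibits cathepsin L and the activation of matrix metalloprotease 2 by membrane-type metalloproteases. Control libraries had 0.473, 0.181, 0.689, 0.734 and 0.844 CPM. Those of SPARC 0.05 had 0.729, 0.405, 0.467, 0.748 and 0.190 CPM, and those of SPARC 0.5 had 1.19, 0.576, 0.539, 0.238 and 0.287 CPM. Both lower doses overlapped with control. The libraries of SPARC 5 had 2.29, 2.62, 1.29, 1.49 and 2.19 CPM and lay above every library of the other 3 groups. SPOCK1 rose by 1.74 ± 0.34 on the log2 scale at SPARC 5 (adjusted p = 7.59e-05), 3.35 times the control level, from a mean count of 20.8 to 71.4 per library. At SPARC 0.05 the log2 fold change was −0.22 ± 0.36 (95% interval −0.94 to 0.49) and at SPARC 0.5 −0.08 ± 0.36 (−0.78 to 0.62). The rise at SPARC 5 stayed past the threshold under every alternative, with adjusted p up to 0.00453 when both libraries apart on the second component were dropped.

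SPOCK2 (ENSG00000107742, chromosome 10, 72059035 to 72089032, minus strand), which encodes testican-2, had a mean of 0.988 ± 0.125 CPM without the protein and, in rising order of dose, of 0.945 ± 0.394, 0.850 ± 0.273 and 1.09 ± 0.364 CPM. Its libraries overlapped in all groups, and the log2 fold change at SPARC 5 was 0.14 ± 0.29 (adjusted p = 0.842). The SD of each group with SPARC protein was above that of control.

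SPOCK3 (ENSG00000196104, chromosome 4, 166733384 to 167234796, minus strand), which encodes testican-3, had the lowest control mean of the family, with a range that overlapped that of SMOC2. Its counts were 2, 2, 1, 2 and 2 in control, 0, 2, 0, 2 and 14 at SPARC 0.05, 0, 14, 20, 4 and 23 at SPARC 0.5, and 4, 4, 4, 6 and 15 at SPARC 5. Each library of SPARC 5 was above the controls, and 4 of 5 were at SPARC 0.5. The log2 fold change was 2.41 ± 0.82 at SPARC 0.5 (adjusted p = 0.101) and 1.75 ± 0.85 at SPARC 5 (adjusted p = 0.198), and neither passed the test. SPOCK3 passed the filter on low counts only through libraries with SPARC protein, as no control library had more than 2 counts. Its separation from control is therefore no independent support for a rise. At SPARC 0.05 the value of 0.81 ± 0.89 rested on replicate 5, and without it the sign turned (−0.83).

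**Figure D3:**
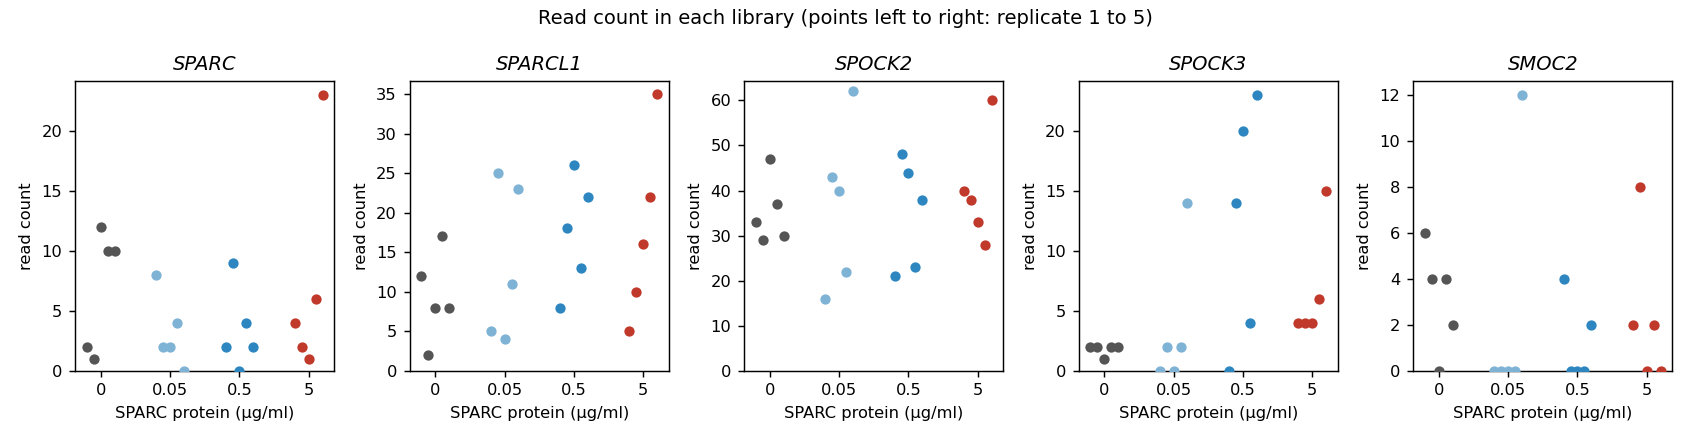
Read counts of the 5 members that were not called or not tested, in every library, against the dose of SPARC protein in µg/ml, with points from left to right for replicates 1 to 5. The groups overlap for SPARC, SPARCL1, SPOCK2 and SMOC2, and for SPOCK3 the SPARC 5 libraries (4 to 15 counts) lie above control (1 to 2 counts).

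**Figure D4:**
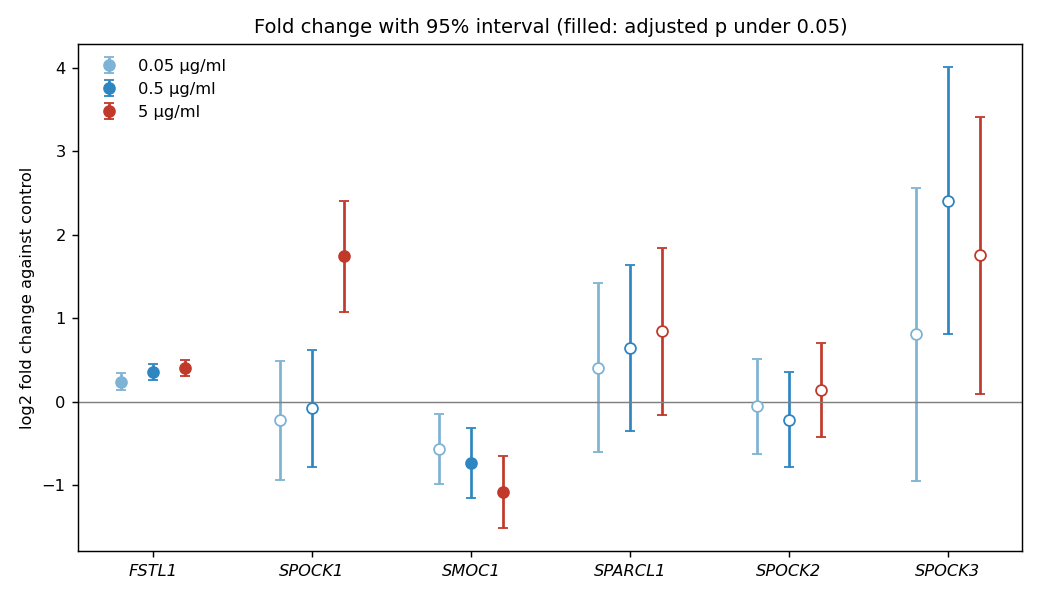
Log2 fold change of the 6 members tested at each dose against control, with 95% intervals and filled points for adjusted p under 0.05. FSTL1 is filled at 3 doses, SMOC1 at 2 and SPOCK1 at 1, and the intervals of SPOCK3 at SPARC 0.5 and SPARC 5 lie above 0 before adjustment. SPOCK3 passed the filter on low counts only through libraries with SPARC protein.

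Between doses, SPOCK1 separated the top dose from the lower ones. It was higher at SPARC 5 than at SPARC 0.5 by 1.82 ± 0.34 (adjusted p = 6.88e-05) and than at SPARC 0.05 by 1.97 ± 0.34 (adjusted p = 1.25e-05). It was the only member of 6 called in the first of these comparisons, where 4.8% of all genes were called (3.31% higher, 1.49% lower). In the second, where 8.29% of all genes were called (5.55% higher, 2.74% lower), FSTL1 was called as well, by 0.16 ± 0.05 (adjusted p = 0.0211). That call of FSTL1 was lost without replicate 1, 3 or 4 of SPARC 0.05 or replicate 2 of SPARC 5 (0.11, adjusted p = 0.189), with library sizes only (0.12, adjusted p = 0.106), and with SPARC 5 replicates 2 and 5 dropped (0.14, adjusted p = 0.112).

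For FSTL1 the step from SPARC 0.5 to SPARC 5 was 0.05 ± 0.05 (95% interval −0.044 to 0.147, adjusted p = 0.728). For SMOC1 it was −0.35 ± 0.22 (−0.79 to 0.09, adjusted p = 0.525), and from SPARC 0.05 to SPARC 5 it was −0.52 ± 0.22 (adjusted p = 0.158). Between SPARC 0.05 and SPARC 0.5, 0 of 6 members were called, against 0.179% of all genes (0.157% higher, 0.0218% lower). FSTL1 and SPOCK3, 2 of the 6, were under 0.05 before adjustment, and DESeq2 and limma-voom called 0.

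The authors' deposited table for SPARC 5 lists 16045 genes, among them 4 members of the family. There, SPOCK1 has a log2 fold change of 1.81 (interval 1.10 to 2.51, adjusted p = 0.000105), FSTL1 0.39 (adjusted p = 4.31e-08), SMOC1 −1.08 (adjusted p = 0.000225) and SPOCK2 0.045 (adjusted p = 0.942). For SPARC 0.05, the authors' deposited table gives FSTL1 0.25 (adjusted p = 0.00721) and SMOC1 −0.57 (adjusted p = 0.170). For SPARC 0.5, the authors' deposited table gives FSTL1 0.35 (adjusted p = 5.41e-06), SMOC1 −0.75 (adjusted p = 0.0208), SPOCK1 −0.13 (adjusted p = 0.916) and SPOCK2 −0.27 (adjusted p = 0.700). SPARC, SPARCL1, SPOCK3 and SMOC2 are not listed in the authors' deposited tables.

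The genes whose level followed each called member most closely were taken by Pearson correlation of log2 CPM over the 20 libraries, which include the difference between doses. For FSTL1 these were TEAD1, a transcription factor of the Hippo pathway (r = 0.900), the sodium-calcium exchanger SLC8A1 (r = 0.882) and the protocadherin FAT4 (r = 0.848), among 15224 other genes. For SPOCK1 they were the lysosomal sialidase NEU1 (r = 0.884), the actin-bundling MISP (r = 0.882) and the peptide hormone UCN2 (r = 0.879). For SMOC1 they were IRF1 (r = 0.820), an interferon-regulated transcription factor, CAVIN2 (r = 0.815), a caveolar protein, and ALDH3A1 (r = 0.810), an aldehyde dehydrogenase abundant in corneal epithelium. The members not called had lower values. SPARCL1 was closest to TCF12 (0.729), HUWE1 (0.729) and BRSK1 (0.722), SPOCK2 to PSD (0.773), ZNF568 (0.733) and POTEF (0.725), and SPOCK3 to BRSK1 (0.784), PRKAG1 (0.752) and CUL1 (0.720).

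Genes for proteins that bind, cut or answer to the family were grouped by role, and at SPARC 5 more of them were higher than lower, against 7.05% of all genes higher, 4.58% lower and a median log2 fold change of −0.007 over all genes. The lists were chosen with earlier results of these data known, so their counts describe these genes and are no independent evidence of a direction. Of 5 SPARC receptor and adaptor genes tested, 3 were higher, 0 lower and 2 not called (median 0.17). The 3 were the integrin subunits ITGB5 (0.33 ± 0.03), ITGB1 (0.21 ± 0.02) and ITGAV (0.17 ± 0.03). VCAM1 was at 0 in all libraries of control and SPARC 5, and ITGB3 was not tested. The next list held genes for collagens, growth factors and other matrix proteins taken to bind SPARC, and binding was not tested. Of its 10 genes tested, 3 were higher, 2 lower and 5 not called (median 0.26). The collagen IV chains COL4A1 (0.63 ± 0.03) and COL4A2 (0.57 ± 0.04) and thrombospondin-1 (THBS1, 1.40 ± 0.06) rose, and VEGFA changed by −0.30 ± 0.05. The other fall, PDGFA (−0.13 ± 0.04), was named after its values were seen. Its call was lost with GC and length trends taken out (−0.098, adjusted p = 0.130). It was also lost with limma-voom (adjusted p = 0.0682) and with both libraries apart on the second component dropped (adjusted p = 0.102).

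Among 5 genes for enzymes that cleave or crosslink SPARC, TGM2, the tissue transglutaminase, rose from 4.32 ± 0.676 to 8.50 ± 0.517 CPM (0.98 ± 0.12, adjusted p = 3.22e-10) and CTSB, cathepsin B, rose by 0.23 ± 0.03. The other 3 were not called (median of the 5, 0.44). Of 4 protease partners of the testicans, 2 were higher, 0 lower and 2 not called (median 0.065). They were the membrane metalloprotease MMP14 (0.28 ± 0.03, from 211 ± 7.39 to 257 ± 10.5 CPM) and cathepsin L (CTSL, 0.12 ± 0.04). CTSL was not past the threshold with library sizes only (0.069, adjusted p = 0.233) or without a filter on low counts (0.112, adjusted p = 0.0599).

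BMP signalling was covered by 2 lists. Of 9 genes for FSTL1 receptors and for BMP ligands and receptors, 1 was higher, 0 lower and 8 not called (median −0.019). It was BMPR2, the type II BMP receptor, which went from 72.1 ± 3.39 to 90.2 ± 3.56 CPM (0.32 ± 0.04, adjusted p = 6.25e-12). Of 6 BMP response genes, 2 were higher, 0 lower and 4 not called (median 0.16): SMAD7, an inhibitory SMAD that TGF-beta also induces (0.37 ± 0.08), and ID3 (0.22 ± 0.06), whose call was lost with library sizes only (adjusted p = 0.0520). ID1, the target most used as a BMP readout, was not called (−0.24 ± 0.13, adjusted p = 0.300).

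Of 3 other secreted BMP and activin antagonists tested, 2 were higher, 0 lower and 1 not called (median 0.36). FSTL3 went from 122 ± 7.72 to 168 ± 8.08 CPM (0.46 ± 0.04) and FST, follistatin, from 354 ± 46.6 to 456 ± 24.2 CPM (0.36 ± 0.07). With the proteoglycan AGRN (0.15 ± 0.03), these made 3 of 3 other follistatin-domain genes tested that were higher at SPARC 5. Of 10 other matricellular genes tested, 6 were higher, 0 lower and 4 not called (median 0.44), among them TGFBI (1.06 ± 0.02), THBS1, CCN1 (0.61 ± 0.05) and tenascin-C (TNC, 0.46 ± 0.08).

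At the lower doses fewer of these genes were called, as was the case for all genes (61 at SPARC 0.05 and 517 at SPARC 0.5, against 2666 at SPARC 5). At SPARC 0.05, where 0.266% of all genes were called, 0 of the 52 genes tested over the 9 lists were called in the edgeR test, 6 were under 0.05 before adjustment, and DESeq2 and limma-voom each called 1, lower. At SPARC 0.5, where 2.25% of all genes were called, 7 of the 52 were higher and 2 lower. ITGB1 (0.10 ± 0.02), ITGB5 (0.14 ± 0.03), COL4A1 (0.12 ± 0.03), THBS1 (0.37 ± 0.05), BMPR2 (0.16 ± 0.04), TGFBI (0.22 ± 0.02) and CCN1 (0.25 ± 0.05) rose. VEGFA (−0.31 ± 0.05) and THBS3 (−0.40 ± 0.12) were lower, and THBS3 was named after its values were seen. With GC and length trends taken out, the calls at this dose of ITGB1 (0.065, adjusted p = 0.0615) and BMPR2 (0.092, adjusted p = 0.215) were lost, and with library sizes only that of COL4A1 (0.093, adjusted p = 0.0515). THBS3 was near the threshold and lost its call in 5 of the 12 alternatives, limma-voom among them, at values of −0.40 to −0.34 (adjusted p from 0.0503 to 0.125).

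**Figure D5:**
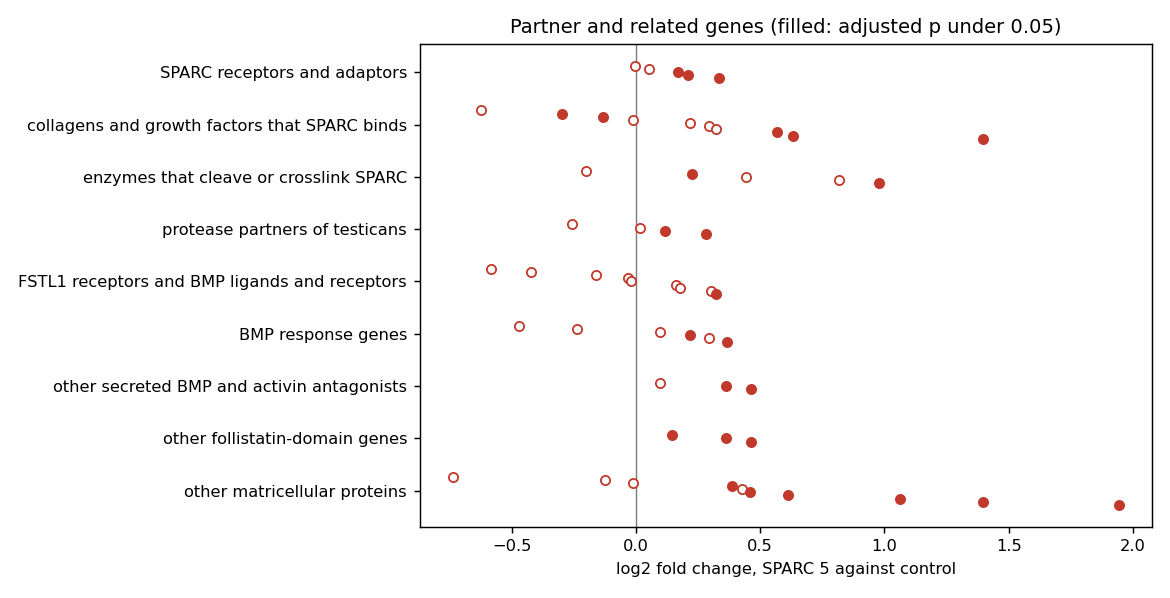
Log2 fold change at SPARC 5 against control of every tested gene in 9 lists of binding partners and related genes, with filled points for adjusted p under 0.05. Most filled points lie right of 0, with THBS1 at 1.40 and TGFBI at 1.06, and VEGFA and PDGFA are the filled points left of 0.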

How the data were processed

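The deposited table holds whole read counts per gene, made by the authors. The submitters' processing notes name GRCh38 and, without their roles, featureCounts 2.0.3 of Subread, STAR 2.7.9a, bcl2fastq, limma, edgeR and Salmon 1.5.2. For the annotation release and the strand setting, the sources used here give nothing. The authors' comparison tables, per the file headers, hold log2 fold changes, log2 levels, p-values, linear fold values and t and B scores, of which only fold changes, intervals and adjusted p were copied. The 60871 entries were reduced to 60671 identifiers by keeping 1 of each set of equal repeated entries. Genes were filtered with filterByExpr (minimum count 10), scaled by TMM and tested with edgeR 4.0.16 (quasi-likelihood F-test, robust, R 4.3.3) in 1 model of the 4 groups, with Benjamini-Hochberg adjustment and a threshold of 0.05. CPM are TMM-scaled, and SEs come from the log2 fold change and its F statistic. Log2 CPM for correlations used a prior count of 2, over named genes averaging 1 CPM or more. Positions and exon lengths are from GENCODE release 29, and sequences from RefSeq (GRCh38.p14). SPOCK1 has no upstream sequence shown here. Alternatives used limma-voom (limma 3.58.1), DESeq2 1.42.0, other scalings, filters and sample sets. Members and gene lists were chosen with earlier results of these data known. All 8 members are named, with the 3 genes most like each tested member and up to 4 called genes per list, by smallest p at SPARC 5. Other genes of the lists, PDGFA and THBS3 among them, were named after their values were seen. Counts differed beyond sampling noise in all 40 within-group library pairs (chi-square 4.09 to 9.55 per gene).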

Additional observations from a re-analysis of the deposited data

Results flagged for a closer look

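In 6 of the 32 sets of 5 libraries (8 members, 4 groups), 1 library lay far from the other 4. For normally distributed values, chance flags about 1 in 20 sets. All 6 concern members with few, mostly even counts, for which that rate does not hold and none was computed. SPARC had 0.637 CPM (23 counts) in SPARC 5 replicate 5, against 0.165 CPM in the next library of that group. SPOCK3 had 0.416 CPM (15 counts) in the same library, with 0.165 CPM as the next value. SPOCK3 also stood out in SPARC 0.05 replicate 5 at 0.333 CPM (14 counts, next value 0.0598) and, on the low side, in control replicate 3 at 0.0246 CPM (1 count, next value 0.0557). SMOC2 had 0.285 CPM (12 counts) in SPARC 0.05 replicate 5, with the other 4 libraries at 0, and 0.249 CPM (8 counts) in SPARC 5 replicate 2, with 0.055 CPM as the next value. SPARC 5 replicate 5 also had the highest SPARCL1 count of all 20 libraries (35).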

How the results depend on the processing

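12 alternatives and 20 fits that left out a library were run, and 3 of the 12 were chosen after seeing the data (halved counts, GC content and length, both libraries apart on the second component dropped). The rises of FSTL1 at SPARC 0.5 and SPARC 5, the rise of SPOCK1 and the fall of SMOC1 at SPARC 5 kept their call in all of them. The count of members called at SPARC 0.5 was 1 in place of 2 without a filter on low counts and after the GC correction, and 1 to 2 when libraries were left out. At SPARC 0.05 it was 0 in place of 1 after the GC correction. For SPARC 5 against SPARC 0.05 it was 1 in place of 2 with library sizes only and with both libraries dropped, and 1 to 2 when libraries were left out.

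Over the 9 partner lists, 21 higher and 2 lower calls of 52 at SPARC 5 became 19 and 4 with library sizes only, which moved the median of all genes to −0.054. Among all genes, 61 were called at SPARC 0.05, 108 with DESeq2, 11 after the GC correction and 22 to 82 when a library was left out. The low counts were without control replicates 2, 3 and 4 and SPARC 0.05 replicates 2, 3 and 5. At SPARC 0.5 the 517 became 267 without SPARC 0.5 replicate 4 and 333 without control replicate 3 (range 267 to 611). Between SPARC 0.5 and SPARC 0.05 the 41 became 70 without a filter, 80 in a fit of those groups alone, 82 after the GC correction and 15 to 52 when a library was left out. With library sizes only, the share of calls that were higher went from 60.6% to 31.3% at SPARC 5, from 60.3% to 28.8% at SPARC 0.5, from 70.5% to 47.8% at SPARC 0.05, from 87.8% to 60.0% for SPARC 0.5 against SPARC 0.05, from 66.9% to 36.3% for SPARC 5 against SPARC 0.05 and from 69.0% to 46.0% for SPARC 5 against SPARC 0.5.

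With the replicate number as a block, 66 genes in place of 41 were called between SPARC 0.5 and SPARC 0.05, and no member gained or lost a call. The labels do not pair libraries that share a number. The correlation of their deviations had a median of 0.031 (−0.069 to 0.093, 30 pairs). Libraries of different numbers had a median of −0.009 (−0.094 to 0.126, 120 pairs). Of the 20 libraries, 11 correlated best with a library of their own number, although most pairs joined different numbers. Whether libraries that share a number were handled together was not tested.

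Signs turned only for values that were not called. With limma-voom, SPOCK3 at SPARC 0.05 was −0.287 and SPARCL1 between SPARC 5 and SPARC 0.5 −0.0562. With both libraries dropped, SPOCK2 was −0.180 at SPARC 5 and −0.126 against SPARC 0.05, and SPARCL1 −0.165 between SPARC 5 and SPARC 0.5. Leaving out a library gave ranges of −0.274 to 0.113 (SPOCK2, SPARC 0.05), −0.507 to 0.117 (SPOCK1, SPARC 0.5), −0.826 to 1.12 (SPOCK3, SPARC 0.05), −0.0637 to 0.243 (SPOCK2, SPARC 5), −0.284 to 0.341 and −0.340 to 0.0582 (SPOCK1 and SPOCK2, SPARC 0.5 against SPARC 0.05), −0.0103 to 0.411 (SPOCK2, SPARC 5 against SPARC 0.05) and −0.226 to 0.431 (SPARCL1, SPARC 5 against SPARC 0.5). The cause of these differences was not tested. Depth limits SPARC, SMOC2 and SPOCK3, whose highest counts in any library were 23, 12 and 23.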
